A study of Homo sapiens with 6 samples.

Results

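The lysosomal genes described here were a set of 39 genes chosen by name: membrane proteins, cathepsins, glycosidases, lipid hydrolases and other lumenal proteins, proton pump subunits and the transcription factors TFEB and TFE3. Probe sets were taken where the platform annotation gave exactly one of these symbols, which yielded 90 of 54675 probe sets and 38 of the 39 genes; the single probe set of GLB1 also names another gene and was not used. All 38 genes had a probe set above the filter on dim signals and were tested among 13765 genes. The cells were RL, an established human B lymphoid line that carries the t(14,18) translocation typical of follicular lymphoma, so they stand for 1 tumour and 1 line. They were grown as MALC, multicellular aggregates of lymphoma cells, harvested at 10 days (3 arrays), or as single cells in suspension, harvested while growing exponentially (3 arrays). All cells were untreated, and culture form, age of the culture and growth state differed together between the groups and cannot be told apart. Each array was an Affymetrix U133 Plus 2.0 array of total RNA, with values on a linear signal scale.

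Lysosomes are acid compartments in which proteins, glycans and lipids are degraded. A proton pump, the V-ATPase, lowers the pH of the lumen, heavily glycosylated membrane proteins such as LAMP1 and LAMP2 line the inner face, and soluble hydrolases reach the lumen mostly by way of a mannose 6-phosphate tag. TFEB and TFE3 are transcription factors that bind E-box elements of the CLEAR type in promoters of many lysosomal genes, and in B cells the cathepsins also trim the invariant chain and antigens for presentation on MHC class II.

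Array medians were 80.7 to 81.7, and the groups separated on the first principal component (82.6% of variance), with MALC 1 nearest to suspension. Samples 2 and 3 of each group were nearly alike (Pearson correlation 0.9984 in MALC and 0.9985 in suspension, against 0.9949 to 0.9955 with sample 1). The labels do not say whether arrays of a group came from separate cultures, so that the p-values may reflect technical spread alone, and calls are therefore also given with samples 2 and 3 averaged into 1 replicate. Control probe sets at the 3′ and 5′ ends of ACTB had ratios between 1.22 and 1.33 for MALC and between 1.31 and 1.54 for suspension, and the part of RNA quality in the results was not tested. All 9 measured B cell markers were above the filter, with summed signals of 51720 to 57650 in MALC and 49250 to 57710 in suspension; among them CD37 (0.90 on the log2 scale) and BLK (0.36) rose and FCRLA (−0.72) fell. Of 10 markers of macrophages and monocytes, cells rich in lysosomes, 4 passed the filter, with sums of all 10 at 1086 to 1286 in MALC and 1375 to 1442 in suspension; CD14, CD163, MRC1, LYZ, FCGR1A and MSR1 were under the filter signal of 53.4 in every array, and AIF1 fell (−0.37). Of 8 fibroblast markers 4 passed, with sums of 1244 to 1405 in MALC and 1854 to 2231 in suspension, highest in suspension 2, where COL1A2 read 347; THY1 averaged 793 in MALC against 1268 in suspension and fell (log2 change −0.67, limma adjusted p = 0.000976). Of 6 T and NK cell markers 4 passed, with sums of 354 to 372 in MALC and 391 to 402 in suspension. All cultures were of the RL line, so these signals do not show that other cell types were present, and their source was not tested. In RNA of whole cultures, fewer RL cells with a transcript and less of it per cell cannot be told apart.

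In MALC, 12 of the 38 lysosomal genes rose, 9 fell and 17 did not pass (limma, Benjamini-Hochberg over all genes tested, threshold 0.05). Of all genes tested, 19% rose and 23.7% fell, while 31.6% of the set rose and 23.7% of it fell; in either direction, 42.7% of all genes passed. The falls include LAPTM4B, which exceeded the filter only in suspension; among the 37 members above it in both groups, 12 rose and 8 fell. With samples 2 and 3 averaged, 7 members rose (NPC2, ASAH1, MANBA, TPP1, NEU1, PSAP and NPC1) and 1 fell (CTSC), when calls over all genes numbered 1235 higher and 1112 lower. Without MALC 2 or suspension 2, the falls numbered 4 and 5. The median log2 change of the set was 0.06, against −0.06 over all genes tested. Changes in both directions occurred among genes of soluble lumenal proteins: NPC2, ASAH1, MANBA, TPP1 and NEU1 rose 1.81- to 2.75-fold, while CTSC, GLA and CTSZ fell. Of the membrane proteins, LAMP1, MCOLN1 and LAPTM4B fell and NPC1 rose. CTSC, GLA, CTSZ, LAMP1 and MCOLN1 fell to between 0.629 and 0.737 of their suspension level. NPC2 and ASAH1 were the 2 members changed at least 2-fold, a size reached upwards by 2.78% of all genes. All 3 MALC arrays lay above all 3 suspension arrays for 14 of the 38 members, a larger share than the 23.1% of all genes tested. They lay below them for 10 of the 38, a smaller share than the 33.8% of all genes tested. Fold changes were taken after 16 was added to each signal, so that changes of dim genes are understated, and the set was assembled with earlier results of these arrays known.

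**Figure D1:**
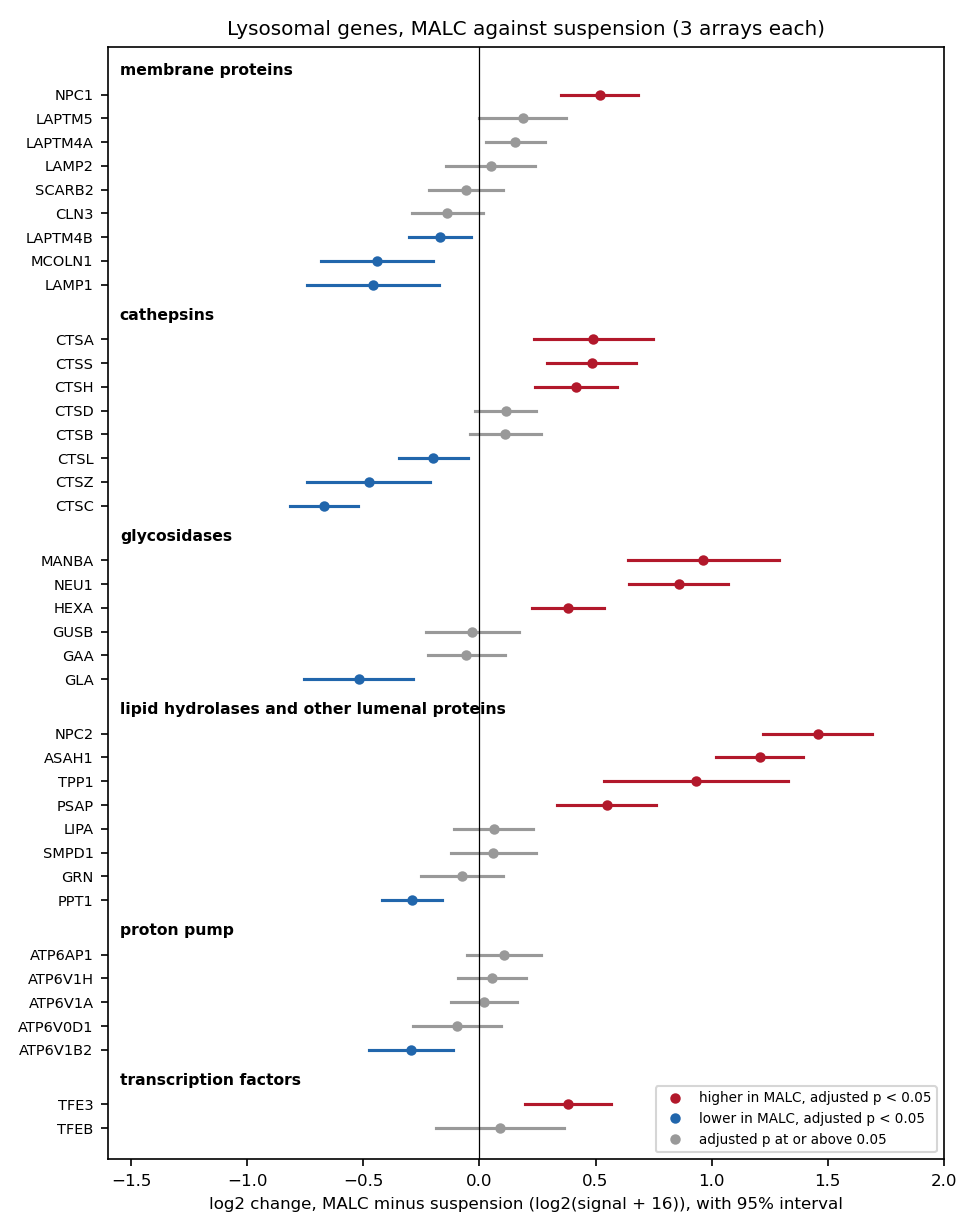
Log2 change (MALC minus suspension, on the log2(signal + 16) scale) of the 38 lysosomal genes by role, with the 95% confidence interval from the limma fit over 3 arrays of each group. Red points rose and blue points fell at an adjusted p under 0.05, and grey points did not pass; NPC2 lies highest at 1.46 and CTSC lowest at −0.67.

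The promoter sequences of 6 members are shown because they hold, or lack, the E-box of the CLEAR type and belong to genes that rose, fell and did not pass. Each run is the 250 bases before the annotated start in RefSeq (GRCh38.p14), 5′ to 3′ on the gene's strand, with every CACGTG and its matching flanks in capitals.
CTSA, chr20:45891085-45891334, plus strand: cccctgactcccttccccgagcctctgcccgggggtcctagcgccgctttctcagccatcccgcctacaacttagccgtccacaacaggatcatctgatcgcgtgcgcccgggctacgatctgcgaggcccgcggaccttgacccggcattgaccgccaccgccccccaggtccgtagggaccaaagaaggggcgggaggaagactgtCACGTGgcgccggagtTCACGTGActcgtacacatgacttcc
NEU1, chr6:31862822-31863071, minus strand: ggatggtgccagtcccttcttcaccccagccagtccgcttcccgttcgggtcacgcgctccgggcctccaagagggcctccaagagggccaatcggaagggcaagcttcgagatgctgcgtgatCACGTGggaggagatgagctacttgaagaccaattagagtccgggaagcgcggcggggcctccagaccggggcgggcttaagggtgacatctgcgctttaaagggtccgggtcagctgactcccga
NPC2, chr14:74493513-74493762, minus strand: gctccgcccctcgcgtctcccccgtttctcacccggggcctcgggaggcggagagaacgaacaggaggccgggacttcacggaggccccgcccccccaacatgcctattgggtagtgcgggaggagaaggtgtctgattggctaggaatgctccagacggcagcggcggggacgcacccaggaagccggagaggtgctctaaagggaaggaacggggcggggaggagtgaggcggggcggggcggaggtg
LAMP1, chr13:113296989-113297238, plus strand: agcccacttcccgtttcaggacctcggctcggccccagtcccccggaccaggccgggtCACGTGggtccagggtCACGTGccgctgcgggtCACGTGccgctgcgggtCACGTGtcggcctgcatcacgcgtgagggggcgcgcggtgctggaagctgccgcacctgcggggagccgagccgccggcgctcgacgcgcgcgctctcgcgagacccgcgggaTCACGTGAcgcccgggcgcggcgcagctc
MCOLN1, chr19:7522374-7522623, plus strand: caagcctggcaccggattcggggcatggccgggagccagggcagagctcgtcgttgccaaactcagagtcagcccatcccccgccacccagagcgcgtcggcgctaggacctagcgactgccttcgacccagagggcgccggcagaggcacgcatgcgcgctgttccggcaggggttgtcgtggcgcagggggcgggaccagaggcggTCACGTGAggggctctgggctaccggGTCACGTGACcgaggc
GAA, chr17:80101331-80101580, plus strand: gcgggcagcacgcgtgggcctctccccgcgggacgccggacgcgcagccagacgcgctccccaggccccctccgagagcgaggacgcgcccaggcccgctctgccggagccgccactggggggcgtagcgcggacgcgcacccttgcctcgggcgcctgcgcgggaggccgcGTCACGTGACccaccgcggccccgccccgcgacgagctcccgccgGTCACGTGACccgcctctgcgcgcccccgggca

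The motifs searched were CACGTG, the longer TCACGTGA that contains it, and the same with a further G before and C after it. All 3 read the same on both strands. CTSA and NEU1 rose, with 2 and 1 CACGTG; NPC2 rose most and has none in this window. LAMP1 and MCOLN1 fell, with 5 and 2 CACGTG. GAA, which did not pass, holds 2 copies of the longest motif, 73 and 28 bases before the start, and MCOLN1 holds 1. RefSeq promoters were at hand for 28 of the 39 genes, of which 8 hold CACGTG (28.6%), against 6.49% of 27305 promoters of the same length and 8.59% of those of genes tested here. The 28 include GLB1, which was not tested. Only the first listed start of each gene was used, so promoters at other starts were not searched. The longer TCACGTGA is in 5 of the 28 (17.9%), against 0.89% of all promoters and 1.6% of those of genes tested here. By direction of change, CACGTG was found in 2 of 7 promoters of members that rose, 2 of 7 of members that fell and 4 of 13 of members that did not pass. No promoter was at hand for ASAH1, MANBA, PSAP, HEXA and CTSS, which rose, or for LAPTM4B and ATP6V1B2, which fell. The members were chosen as lysosomal genes, and E-boxes of the CLEAR type are known from promoters of such genes. The shares over all 28 promoters therefore do not bear on changes in MALC. A match is a run of letters and no measured binding site.

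NPC2, the soluble cholesterol carrier of the lysosomal lumen, had signals of 2958, 3244 and 3492 in MALC, against 1329, 1089.9 and 1089.6 in suspension. No MALC array came near a suspension array, and the log2 change was 1.46 ± 0.10 (SE, 2.75-fold, adjusted p = 0.000161). NPC1, the membrane protein to which NPC2 hands cholesterol, gave 515, 483 and 472 in MALC, against 349.8, 346 and 317 in suspension. Its groups were also apart, with a smaller change of 0.52 ± 0.07 (1.43-fold, adjusted p = 0.00128). LIPA, the acid lipase that frees this cholesterol from its esters, averaged 2451 ± 135 in MALC and 2349 ± 157 in suspension (SD, n = 3 each); its groups overlapped and it did not pass (limma adjusted p = 0.524, 95% interval of the log2 change −0.11 to 0.23), though it did with both arrays numbered 1 left out (0.00691) and with array weights (0.00917).

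Acid ceramidase, ASAH1, which splits ceramide into sphingosine and fatty acid, reached 3671, 4261 and 4396 in MALC, against 1842, 1736 and 1719 in suspension. The rise was 2.31-fold (log2 change 1.21 ± 0.08, adjusted p = 0.000133), and MALC 1 was the lowest MALC array while still far above suspension. PSAP, the precursor of the saposins that present sphingolipids to their hydrolases, had 4363, 4629 and 5138 in MALC, against 2867, 3494 and 3292 in suspension. Every MALC array exceeded every suspension array (1.46-fold, log2 change 0.55 ± 0.09, adjusted p = 0.00271). SMPD1, acid sphingomyelinase, which makes ceramide from sphingomyelin, averaged 198 ± 11.9 in MALC and 189.6 ± 15.2 in suspension with overlapping groups (limma adjusted p = 0.565). The interval of its log2 change, −0.12 to 0.24, lies below that of ASAH1, 1.02 to 1.39.

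TPP1, a serine protease that removes tripeptides from the ends of peptides, had 1368, 1758 and 1927 in MALC, against 686, 978 and 969 in suspension. Both arrays numbered 1 were the lowest of their group, and the groups did not overlap (1.91-fold, log2 change 0.93 ± 0.17, adjusted p = 0.00403). PPT1, the palmitoyl thioesterase, moved the other way: 3256, 3099 and 2968 in MALC lay below 3808, 3836 and 3771 in suspension (log2 change −0.29 ± 0.06, adjusted p = 0.00487). GRN, the progranulin gene, averaged 3362 ± 81.2 in MALC, against 3555 ± 342 in suspension, with overlapping groups (limma adjusted p = 0.443). Of the 8 lipid hydrolases and other lumenal proteins, 4 rose (50%, against 19% of all genes tested) and 1 fell (12.5%, against 23.7%). Their median log2 change was 0.31. The PPT1 call was lost when samples 2 and 3 of each group were averaged (adjusted p = 0.101); those of NPC2, ASAH1, TPP1 and PSAP were kept in each of the alternatives in which these genes were tested.

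**Figure D2:**
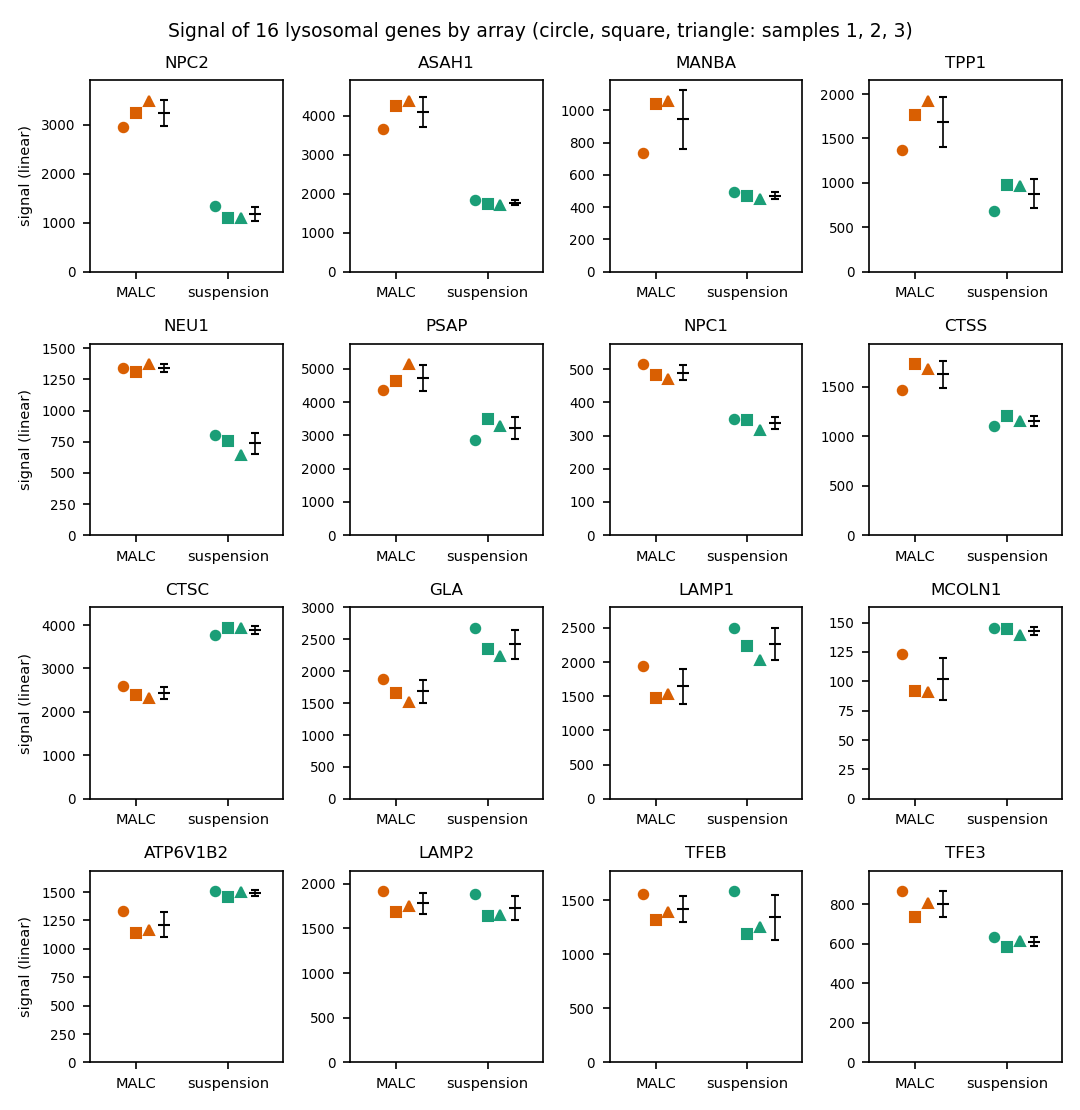
Linear signal of 16 lysosomal genes in each array, MALC left and suspension right, each panel from 0; circles, squares and triangles are samples 1, 2 and 3, and the bar beside them gives the mean ± SD of 3 arrays. NPC2, ASAH1, MANBA, TPP1 and NEU1 stand apart with MALC above, CTSC and GLA with MALC below, and LAMP2 and TFEB overlap.

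The glycosidases trim sugars from glycoproteins and glycolipids. Of 6 tested, 3 rose (50%, against 19% of all genes tested) and 1 fell (16.7%, against 23.7%), with a median log2 change of 0.17. MANBA, lysosomal beta-mannosidase, had 733, 1037 and 1061 in MALC, against 491, 471 and 447 in suspension. MALC 1 lay nearer to suspension than the other MALC arrays did, and the groups were apart (1.95-fold, log2 change 0.96 ± 0.14, adjusted p = 0.00154). NEU1, the sialidase that starts the breakdown of sialylated glycans, had 1343, 1309 and 1372 in MALC, against 808, 755 and 644 in suspension. The spread among MALC arrays was small beside the difference (1.81-fold, log2 change 0.86 ± 0.09, adjusted p = 0.000566).

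HEXA, the alpha subunit of beta-hexosaminidase, had 1394, 1451 and 1468 in MALC, against 1043, 1142 and 1119 in suspension (1.30-fold, log2 change 0.38 ± 0.07, adjusted p = 0.00336). GLA, alpha-galactosidase A, which removes terminal galactose from globosides, fell: 1876, 1664 and 1519 in MALC were below 2682, 2347 and 2246 in suspension (log2 change −0.52 ± 0.10, adjusted p = 0.00497). The enzymes for glycogen (GAA) and glucuronides (GUSB) did not pass, with log2 changes of −0.06 (limma adjusted p = 0.549) and −0.03 (0.798) and overlapping groups. With samples 2 and 3 averaged, the HEXA and GLA calls were lost (adjusted p = 0.0684 and 0.0547).

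The cathepsins were split, with 3 of 8 higher (37.5%, against 19% of all genes tested) and 3 lower (37.5%, against 23.7%). Their median log2 change was 0.11. CTSC, dipeptidyl peptidase I, which activates serine proteases of leukocyte granules, had 2596, 2399.6 and 2315 in MALC, against 3776, 3935 and 3937 in suspension. The groups were far apart relative to their spread (log2 change −0.67 ± 0.06, 0.629 of the suspension level, adjusted p = 0.000365). CTSZ, a carboxypeptidase, had 748, 711 and 812 in MALC, against 892, 1169.97 and 1138 in suspension, with suspension 1 the closest to MALC (log2 change −0.48 ± 0.11, adjusted p = 0.0125). CTSL was dim, at 87.7 ± 4.43 in MALC, against 103 ± 6.69 in suspension (−0.20 on the log2 scale, limma adjusted p = 0.0386).

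CTSA, the protective protein that stabilises NEU1 and beta-galactosidase in a complex, had 923, 1186 and 1224 in MALC, against 774, 791 and 776 in suspension. MALC 1 was the nearest to the closely grouped suspension arrays (1.40-fold, log2 change 0.49 ± 0.11, adjusted p = 0.00963). CTSS, the main invariant chain protease of B cells, had 1468, 1728 and 1676 in MALC, against 1103, 1203 and 1159 in suspension (log2 change 0.48 ± 0.08, adjusted p = 0.00289). CTSH, an aminopeptidase, averaged 4176 ± 357 in MALC, against 3122 ± 134 in suspension (1.33-fold, adjusted p = 0.00395).

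CTSD, the aspartic protease, had a narrow spread at 182 ± 5.16 in MALC, against 167 ± 4.72 in suspension; its groups did not overlap but it did not pass (limma adjusted p = 0.15). CTSB, an endo- and exopeptidase, did not pass at its brightest probe set (limma adjusted p = 0.203). With samples 2 and 3 averaged, 0 cathepsins rose, and the calls of CTSA, CTSH, CTSS and CTSZ were lost (adjusted p between 0.0578 and 0.109), and that of CTSZ without MALC 2 (0.0546). CTSL lost its call without any single array other than MALC 1 (0.0559 to 0.125) and without the filter on dim signals (0.0556); without MALC 2, the cathepsin falls numbered 1.

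Of the 9 membrane proteins, 1 rose (11.1%, against 19% of all genes tested) and 3 fell (33.3%, against 23.7%). Their median log2 change was −0.06. Among the 8 above the filter in both groups, 1 rose and 2 fell (12.5% and 25%). LAMP1, a major glycoprotein of the lysosomal membrane, had 1938, 1469 and 1533 in MALC, against 2502, 2239 and 2034 in suspension. MALC 1 and suspension 3 came close without overlap (log2 change −0.46 ± 0.12, adjusted p = 0.0193). LAMP2, its close relative, which also serves as receptor in chaperone-mediated autophagy, had 1915, 1685 and 1752 in MALC, against 1883, 1640 and 1656 in suspension. The LAMP2 groups overlapped almost fully (log2 change 0.05, adjusted p = 0.667), and its 95% interval, −0.14 to 0.24, does not meet that of LAMP1, −0.74 to −0.17; the difference between them was not tested.

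MCOLN1, the cation channel that releases lysosomal calcium, was dim, with 123, 92 and 91.1 in MALC, against 146, 144 and 139 in suspension (log2 change −0.44 ± 0.10, adjusted p = 0.0115). LAPTM4B, a ceramide-binding membrane protein, had 50.7, 50.02 and 56.8 in MALC, against 62.2, 62.4 and 58.5 in suspension (log2 change −0.17 ± 0.06, adjusted p = 0.047). Its MALC mean lay under the filter signal of 53.4, so that it entered the test only through its suspension level. LAPTM4A had 3198, 3010.4 and 3107 in MALC, against 2833, 2721 and 2806 in suspension, did not overlap and just missed the threshold (limma adjusted p = 0.0534; 0.0398 with the sample number as a block, when the membrane rises numbered 2).

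LAPTM5, a leukocyte protein that directs B cell receptor subunits to lysosomes, SCARB2, the receptor for glucocerebrosidase, and CLN3, a membrane protein lost in juvenile Batten disease, did not pass, with log2 changes of 0.19, −0.06 and −0.14. The CLN3 groups did not overlap, at 364 to 403 in MALC against 415 to 427 in suspension. CLN3 passed as lower with array weights (limma adjusted p = 0.0316). SCARB2 was near the filter signal in all arrays (55 to 66.8), so little can be measured of it. The LAMP1 call was lost without MALC 2 (adjusted p = 0.0764), MALC 3 (0.0691), suspension 1 (0.0574) or suspension 2 (0.0545), and with samples 2 and 3 averaged (0.115), as was then that of MCOLN1 (0.0942). LAPTM4B lost its call under the number block (0.082) and without any single array other than MALC 3 (0.0683 to 0.144), so that the membrane falls numbered 1 without MALC 2, suspension 1 or suspension 2. The LAPTM4B call was also lost without the filter (limma adjusted p = 0.0591), without the trend of the limma fit (0.0634) and in the fit over all probe sets (0.0549).

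The 5 proton pump genes of the set had the narrowest range of changes of the roles with more than 2 genes, −0.29 to 0.11. This role is also the smallest of these, and the 13 other pump subunits tested spanned −0.80 to 0.95. In the role, 0 of 5 rose and 1 fell (0% and 20%, against 19% and 23.7% of all genes tested). ATP6V1B2, the B2 subunit of the catalytic head, had 1336, 1137 and 1165 in MALC, against 1506, 1457 and 1501 in suspension (log2 change −0.29 ± 0.08, adjusted p = 0.0191). ATP6V1A, which carries the ATP-hydrolysing site, had 6355, 6054 and 6216 in MALC, against 6655, 5868 and 5895 in suspension, with overlapping groups (log2 change 0.02, adjusted p = 0.83). ATP6V1H, ATP6V0D1 and ATP6AP1, which encode a regulatory subunit of the head, a subunit of the membrane sector and an accessory protein, likewise did not pass, with log2 changes of 0.05, −0.10 and 0.11. The 95% intervals of these 4 lie between −0.28 and 0.27, which leaves room for changes of up to about that size. The ATP6V1B2 call was lost without MALC 2 (adjusted p = 0.0833), MALC 3 (0.0676), suspension 2 (0.0542) or suspension 3 (0.0673), and with samples 2 and 3 averaged (0.182).

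The transcription factors of lysosomal genes differed in their calls, and the difference between their changes was not tested. TFE3 had 864, 736 and 803 in MALC, against 633, 585 and 612 in suspension, with every MALC array above (1.30-fold, log2 change 0.38 ± 0.08, adjusted p = 0.00717). TFEB had 1556, 1320.4 and 1388 in MALC, against 1581, 1189.8 and 1255 in suspension; both arrays numbered 1 were the highest of their group, and the groups overlapped (log2 change 0.09 ± 0.12, adjusted p = 0.566). The TFE3 call was lost with samples 2 and 3 averaged (0.0727), and TFEB passed with both arrays numbered 1 left out (log2 change 0.15, adjusted p = 0.0249). Activity of these factors is set largely by their location in the cell, which mRNA arrays do not measure.

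A probe set reads only a stretch of a transcript, and 20 members had more than 1 probe set above the filter. In the fit over all probe sets, 26 of the 74 probe sets of members rose, a larger share than the 20.2% of all probe sets with 1 symbol. The 15 that fell were a share slightly under the 22.5% of all probe sets with 1 symbol. Probe sets of the same gene are counted separately here and are not independent. No member had probe sets called in opposite directions, and in 8 of the 20 all passed in the same direction. The 3 LAMP1 probe sets above the filter in both groups fell by 0.35 to 0.46 on the log2 scale (the fourth, at 43.3 in MALC and 73 in suspension, passed the filter only through suspension), the 4 CTSC probe sets by 0.60 to 1.07, and the 4 ASAH1 probe sets rose by 0.61 to 1.55. The 3 HEXA probe sets rose by 0.38, 0.70 and 1.15, the largest for the dimmest.

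TPP1 and TFE3, which rose at their brightest probe sets, each had a probe set that did not pass, with log2 changes of 0.65 (adjusted p = 0.0543, groups overlapping) and 0.18 (0.0609). The other called TPP1 probe sets rose by 0.39 and 0.87. LAMP2 was uneven: one of its 4 probe sets had 767, 1074 and 1014 in MALC, against 473, 570.3 and 601 in suspension, with the groups apart (log2 change 0.77, adjusted p = 0.00433 in the probe set fit). The other LAMP2 probe sets had changes of −0.06, 0.05 and 0.08, and with the mean of its probe sets LAMP2 passed as higher (log2 change 0.21, adjusted p = 0.0237). CTSB had changes of 0.48 and 0.40 at 2 further probe sets, both called (adjusted p = 0.0221 and 0.00776), and 0.11 at the brightest, and it passed with the mean of probe sets (0.33, adjusted p = 0.00367). Which transcripts or isoforms each probe set reads was not examined.

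**Figure D3:**
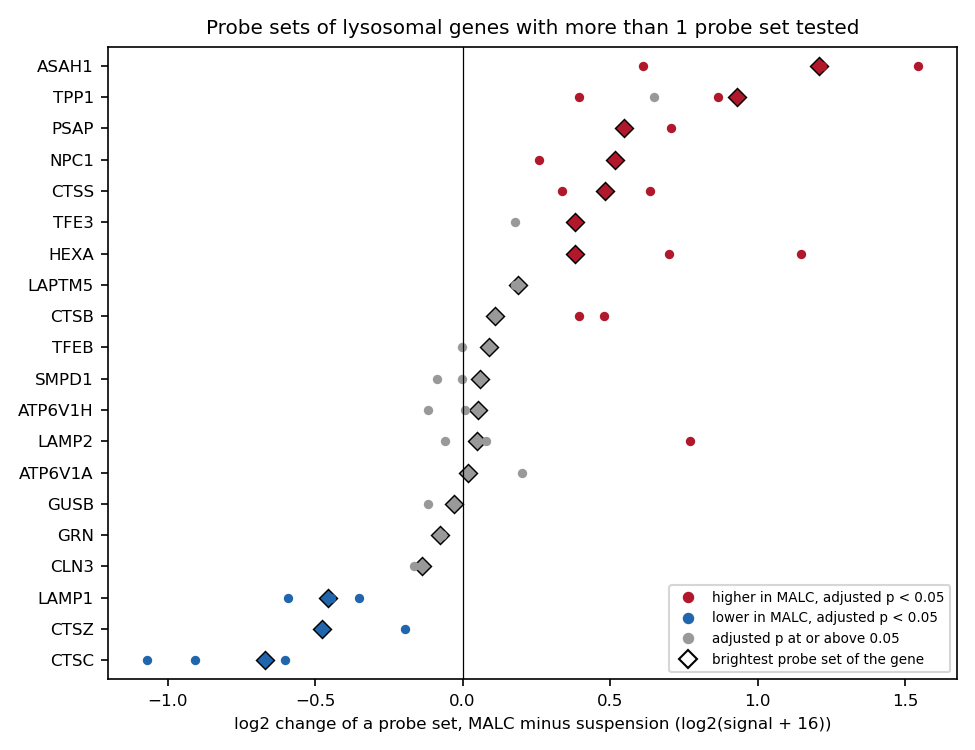
Log2 change (MALC minus suspension, on the log2(signal + 16) scale) of each probe set above the filter for the 20 lysosomal genes with more than 1; diamonds mark the brightest probe set, which stands for the gene, red and blue are called higher and lower, grey did not pass. The LAMP2 probe set at 0.77 lies apart from the other LAMP2 probe sets, and points at nearly equal values, as for ASAH1 at 1.21 and 1.22, cover each other.

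Other lysosomal genes, from lists drawn up by function, also changed in both directions. Over all genes tested, 19% rose and 23.7% fell, and no list was compared with these shares by a test. Of 13 other proton pump subunits tested, 4 rose and 2 fell (30.8% and 15.4%), with a median log2 change of −0.00. ATP6V1G2, a subunit of the stalk, rose 1.94-fold (487 ± 55.6 in MALC against 245 ± 36.03 in suspension, SD, n = 3 each). TCIRG1, the a3 subunit of the membrane sector known from osteoclasts and lymphocytes, rose 1.77-fold (1053 ± 135 in MALC against 586 ± 34.8 in suspension). ATP6V0A2, the a2 subunit, fell with a log2 change of −0.80 (411 ± 79.1 in MALC against 722 ± 30.1 in suspension); limma adjusted p-values of these genes were 0.00107, 0.000958 and 0.00218.

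Of 23 other hydrolases, 4 rose and 3 fell (17.4% and 13%, against 19% and 23.7% of all genes tested), with a median of −0.03. GALC, 1 of the falls, was above the filter only in suspension. SGSH, the heparan sulfamidase, rose 2.37-fold (275 ± 32.5 in MALC against 106 ± 10.1 in suspension, limma adjusted p = 0.000251), PLA2G15, the lysosomal phospholipase A2, rose by 0.57 on the log2 scale, and ACP2, lysosomal acid phosphatase, fell with a log2 change of −0.52. The falls of this list numbered 6 without MALC 1 and 1 without MALC 2, MALC 3 or suspension 3. Of 24 other membrane proteins and transporters, 9 rose and 5 fell (37.5% and 20.8%, median 0.09). Without MALC 2, MALC 3 or any suspension array the falls numbered 1 to 3. LAMP3, an interferon-inducible relative of LAMP1, had 231, 537 and 581 in MALC, against 58.4, 139 and 144 in suspension. Its spread within each group was wide, with sample 1 the lowest in both (log2 change 1.82, limma adjusted p = 0.00858; 0.0544 with samples 2 and 3 averaged). TPCN1, a lysosomal cation channel, rose 2.26-fold and SLC15A4, a histidine transporter needed for endosomal Toll-like receptor signalling, 1.99-fold.

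Genes of mannose 6-phosphate tagging and sorting rose in 5 of 12 cases and fell in 2 (median 0.16). The shares were 41.7% and 16.7%, against 19% and 23.7% of all genes tested. SORL1, a sorting receptor, rose by 0.77 on the log2 scale, while NAGPA, the uncovering enzyme that exposes the tag, fell with −0.77 and CLN6, which helps export hydrolases from the endoplasmic reticulum, with −0.64. Without _s_at and _x_at probe sets, CLN6 was read by another probe set with a log2 change of 0.01 and 0 of the 8 genes of this list then tested with limma fell. In the complexes that sense nutrients on the lysosomal surface, 5 of 14 genes rose and 4 fell (35.7% and 28.6%). RRAGD, a Rag GTPase and a target of the TFEB family, had 828, 629 and 700.04 in MALC, against 259, 245 and 246 in suspension, a 2.75-fold rise that left a wide gap between the groups (limma adjusted p = 0.000162). FNIP1, a partner of folliculin, rose 1.83-fold, and MTOR, the kinase these complexes recruit, fell with a log2 change of −0.70.

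BHLHE40, a transcriptional repressor that can occupy the same E-box, was called higher, with 209 ± 52.9 in MALC against 43.7 ± 3.33 in suspension (limma adjusted p = 0.000275). Its suspension level was under the filter signal, so that it passed the filter only through its MALC level, the group where it is high. Its log2 change was 1.33 with 64 added to each signal and 2.21 with 1 added, so no fold is given. ZKSCAN3, described as a repressor of lysosomal and autophagy genes, rose by 0.23 on the log2 scale, a call that did not hold when any array numbered 2 or 3 was left out (adjusted p = 0.0695 to 0.102), and the third measured gene of that list, MITF, did not pass. Among cystatins, which inhibit cathepsins, CSTB rose by 0.58 on the log2 scale. CST7 had a log2 change of −0.17, and its call was lost under the number block (adjusted p = 0.0593) as well as without MALC 2, MALC 3, suspension 2 or suspension 3. Of 13 tethering genes of the HOPS, CORVET and BORC complexes, 4 rose and 2 fell (30.8% and 15.4%, against 19% and 23.7% of all genes tested). Among them were BORCS8 with −0.85, VPS8 with 0.47 and BORCS7 with 0.42. With the mean of its probe sets VPS8 turned to −0.17 (limma adjusted p = 0.156). With the sample number as a block, or without MALC 1, the falls numbered 4; without MALC 2, MALC 3 or suspension 3 the rises numbered 2. The BORCS7 call was lost without MALC 2 or MALC 3 (adjusted p = 0.0732 and 0.0633).

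**Figure D4:**
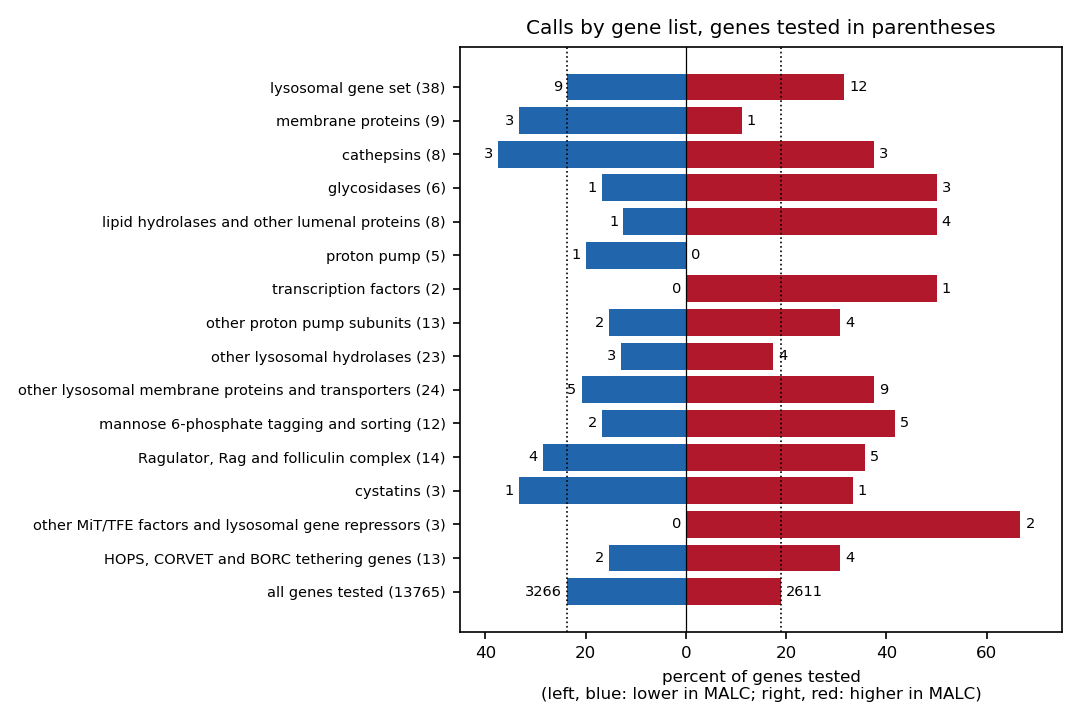
Percent of tested genes called lower (left, blue) and higher (right, red) in MALC for the lysosomal gene set, its roles, the other lysosomal lists and all genes tested; numbers at the bars are counts of genes, those in parentheses the genes tested, and dotted lines mark the 23.7% and 19% of all genes. Bars of lists with few genes move by large steps for 1 gene.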

How the data were processed

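RNA of 6 samples was measured on 1 array each, 3 MALC and 3 suspension, grouped by their titles. Per the labels' protocols, 200 ng of total RNA were amplified and labelled with biotin. The authors deposited linear intensities, 1 per probe set and array; MAS5 is named in the submitters' processing notes, and its role, version and scaling are not given in the sources used here. If arrays were scaled to each other, a shift of all transcripts would not be seen. Symbols came from the platform annotation, updated through Entrez identifiers with RefSeq (GRCh38.p14); no genome was used.

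After 16 was added, intensities were taken to log2. Probe sets at or above the 40th percentile of mean log2 value were kept (a signal of 53.4), and the brightest probe set stood for each gene. MALC and suspension were set against each other with limma 3.58.1 (R 4.3.3, eBayes with trend, two-sided), adjusted over 13765 genes. The test was tested on simulated data. The simulated arrays were drawn independently, so it could not show how the p-values behave if arrays share a culture. Members and lists were chosen with earlier results of these data known. Array values were printed for up to 4 called members of each role with the largest change, LAMP1, LAMP2, TFEB and TFE3, and named list genes were up to 3 called members with the largest change; other values (the arrays of LAPTM4A, PPT1 and ATP6V1A, GALC, the marker genes and single probe sets) were picked with their values known.

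The groups share sample numbers. Deviations from group means correlated at 0.245, 0.168 and 0.14 for samples numbered 1, 2 and 3, all above 0.1, so the number entered as a block in an alternative; MALC 3 with suspension 2 gave 0.175, so numbers 2 and 3 were not told apart. In 19 alternatives 1 choice was changed at a time, with probe sets held fixed when arrays were left out. The number of arrays limits the precision.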

Additional observations from a re-analysis of the deposited data

How the results depend on the processing

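Over 19 alternatives no called member changed direction, 8 of the 21 kept their calls in each one in which they were tested, and 16 kept them whichever single array was left out. The rises numbered 12 of 38 with any 1 array left out, 7 with samples 2 and 3 averaged and 10 to 16 otherwise. The falls numbered 4 to 8 with 1 array left out (4 without MALC 2, 5 without suspension 2), 1 with samples 2 and 3 averaged, 5 of the 28 members then tested without _s_at and _x_at probe sets, and 6 to 10 otherwise; averaging leaves fewer samples, and the other causes were not tested. The median log2 change lay between 0.03 and 0.11. The fit with the sample number as a replicate block gave 13 rises and 8 falls; beyond LAPTM4A, LAPTM4B, CST7 and the falls of the tethering list, named above, it changed no call of a gene in the text. Of 17 members that did not pass, 7 changed sign under some alternative. Outside the set, VPS8 turned to −0.17 with the mean of probe sets (adjusted p = 0.156) and CLN6 to 0.011 without _s_at and _x_at probe sets (0.919). Calls over all genes numbered 3650 higher and 5230 lower with array weights, against 2611 and 3266. Without detection calls, signals near the filter could not be shown to lie above background, which bears on LAPTM4B, SCARB2 and CTSL.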
